A study of Mus musculus with 6 samples.

Results

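The immediate early and heat shock genes are a set of 38 listed mouse genes whose transcripts rise within minutes to hours of a stimulus or a stress, and all probe sets of these genes were read in every array. A probe set was found for 37 of the 38 genes, 27 immediate early and 10 heat shock genes, with 78 probe sets between them out of 45037 probe sets and 18193 named genes on the array. Hsp90ab1 was not analysed here, because no probe set was listed for it alone. The rule that chose the members uses no measured value. The samples came from the spleens of RAG-/- mice, which have no T or B lymphocytes because antigen receptors are not assembled. NK1.1+ cells, mostly natural killer (NK) cells, were gated by flow cytometry on the receptor CD27 and the integrin chain CD11b: early CD27+CD11b- cells, CD27+CD11b+ cells between, and late CD27-CD11b+ cells, an order in which NK cells are usually said to mature. Each subset was measured on 2 arrays, 6 in all, and all groups share the RAG-/- genotype and have no treatment given in the labels. The series describes the 2 arrays of a subset as independent, but no label names separate mice for them, so each p-value reflects only how far these arrays differ, a spread that may be technical.

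Immediate early genes need no new protein to be transcribed: signals through MAP kinases, calcium, cyclic AMP or NF-kB act on factors already bound at their promoters, and many of the products are transcription factors or inhibitors that end the signal. Heat shock genes encode chaperones that fold or refold proteins, and heat shock factor 1 induces part of them when proteins unfold. In lymphocytes both groups are known to respond to receptor and cytokine signals, and also to tissue dissociation and sorting.

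All values are log2 expression values on the deposited scale, and 6.31, the level under which 95% of 53 genes of other tissues lay, is used as the background level. In 1 subset or more, 69 of the 78 member probe sets exceeded it, as did 35 of 37 genes, and Ier3 and Hspa1a did not. For 1 array, CD27-CD11b+ replicate 1, the described gate is that of the CD27+CD11b- cells although the title says CD11b+ CD27-, and the title was followed. Cd27 was 6.96 on it and Itgam (CD11b) 9.93, near those of CD27-CD11b+ replicate 2, 6.47 and 9.44, whereas the CD27+CD11b- arrays had 8.78 and 8.03 for Cd27 and 6.37 and 5.88 for Itgam. Results are therefore also given without that array. A further property divides the arrays across the subsets: 3 probe sets with no gene name averaged 12.57 and 12.81 in replicate 2 of the CD27+CD11b- and of the CD27+CD11b+ cells, and 12.61 in replicate 1 of the CD27-CD11b+ cells (on arrays), against 4.38, 4.47 and 4.33 in the other array of each subset (off arrays). No member is among these probe sets, and the labels do not mention this division, which is a property of the arrays and no group of the study.

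The promoters of the 6 members with the largest difference between on and off arrays are printed first, together with that of Hspa1a, the near-identical neighbour of Hspa1b, because these members carry the pattern described further on. Each sequence is the 250 bases before the annotated start of the gene, 5′ to 3′ on the strand of the gene, from RefSeq (GRCm38.p6). Capitals mark the letters of 4 short motifs, searched on either strand unless stated. GAANNTTC is a pair of the repeats that make up a heat shock element, and GCGNGGGCG is the site of EGR factors. TGACG is one arm of the cyclic AMP response element. A TATA box was searched as TATAAA, on the strand of the gene alone. The regions are chr17:34959239-34959488 (minus strand) for Hspa1b, chr17:34972157-34972406 (minus strand) for Hspa1a, chr10:80929841-80930090 (plus strand) for Gadd45b, chr1:191183334-191183583 (minus strand) for Atf3, chr7:19310046-19310295 (minus strand) for Fosb, chr4:48045055-48045304 (plus strand) for Nr4a3 and chr15:101266596-101266845 (plus strand) for Nr4a1.
Hspa1b: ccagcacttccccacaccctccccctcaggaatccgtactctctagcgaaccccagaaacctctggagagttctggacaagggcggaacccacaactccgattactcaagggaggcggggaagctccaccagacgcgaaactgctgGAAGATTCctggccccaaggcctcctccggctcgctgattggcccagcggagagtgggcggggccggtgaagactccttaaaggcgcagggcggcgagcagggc
Hspa1a: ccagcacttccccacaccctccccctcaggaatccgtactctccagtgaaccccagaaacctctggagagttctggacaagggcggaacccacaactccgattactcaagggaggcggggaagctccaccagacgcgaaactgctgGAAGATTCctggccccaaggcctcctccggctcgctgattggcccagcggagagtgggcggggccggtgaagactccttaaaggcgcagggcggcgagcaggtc
Gadd45b: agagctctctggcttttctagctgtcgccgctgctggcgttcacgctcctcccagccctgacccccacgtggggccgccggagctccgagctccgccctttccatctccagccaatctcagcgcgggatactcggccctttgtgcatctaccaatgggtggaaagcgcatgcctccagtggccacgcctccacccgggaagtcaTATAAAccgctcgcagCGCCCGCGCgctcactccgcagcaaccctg
Atf3: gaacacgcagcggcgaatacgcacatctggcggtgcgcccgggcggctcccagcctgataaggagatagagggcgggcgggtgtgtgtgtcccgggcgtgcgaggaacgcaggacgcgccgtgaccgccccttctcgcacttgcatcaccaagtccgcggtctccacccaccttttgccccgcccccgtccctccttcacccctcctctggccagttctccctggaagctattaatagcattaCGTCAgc
Fosb: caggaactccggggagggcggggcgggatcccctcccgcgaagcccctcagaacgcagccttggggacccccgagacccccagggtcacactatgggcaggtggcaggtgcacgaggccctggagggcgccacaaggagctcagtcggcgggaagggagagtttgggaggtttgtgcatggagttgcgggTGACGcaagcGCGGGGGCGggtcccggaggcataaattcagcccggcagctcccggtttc
Nr4a3: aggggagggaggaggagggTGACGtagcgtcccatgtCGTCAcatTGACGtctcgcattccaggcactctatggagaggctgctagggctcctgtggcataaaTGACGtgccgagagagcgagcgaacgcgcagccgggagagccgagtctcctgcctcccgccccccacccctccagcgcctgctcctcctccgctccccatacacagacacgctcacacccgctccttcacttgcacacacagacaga
Nr4a1: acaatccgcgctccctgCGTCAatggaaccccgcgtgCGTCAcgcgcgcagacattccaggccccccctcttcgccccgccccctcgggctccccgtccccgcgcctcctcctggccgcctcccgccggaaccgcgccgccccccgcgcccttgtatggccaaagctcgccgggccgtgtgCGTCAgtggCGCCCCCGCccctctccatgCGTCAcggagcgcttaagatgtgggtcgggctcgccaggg

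The Hspa1a and Hspa1b windows were identical at 247 of 250 positions, and both held GAANNTTC once, 104 bases before the start. Nr4a3 and Nr4a1 each held TGACG 4 times, Fosb and Atf3 once. A promoter was matched for 32 members. TGACG was found in 17 of these 32 promoters (53.1%) and in 19.8% of 27025 genes, and at least 2 copies in 8 of 32, against 4.46% of all genes. The EGR site was found in 9 of 32 (28.1%) and in 5.33% of all genes, among the printed ones in Gadd45b, Fosb and Nr4a1. GAANNTTC was found in 7 of 32 (21.9%) and in 7.73% of all genes, and a heat shock element with one more repeat in 2 of 32, Hspd1 and Hspe1, and in 0.514%. Windows of these 2 genes, which lie head to head, overlap and share those letters. TGANTCA (the AP-1 site) was found in 3 of 32 (9.38%) and 7.82% of all genes, and the CArG box, to which serum response factor binds, in 3 of 32 (Dusp5, Egr2 and Zfp36) and 1.62%. The full element TGACGTCA, which overlaps TGACG, was found in Btg2 and Dusp1 and in 1.77% of all genes. TATAAA was found in 5 of 32 (15.6%) and in 8.94% of all genes. These matches describe letters in the windows and no bound sites.

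Across the subsets, the set as a whole showed no called change, and its members went in opposite directions. Each gene is given here by its probe set with the highest mean. The values of Ier2, Btg2, Junb, Jun and Dusp2 were higher by 0.60 to 1.04 on the log2 scale in CD27-CD11b+ than in CD27+CD11b- cells. Those of Nr4a3, Nr4a2 and Zfp36l1 were lower by 2.05, 0.78 and 0.71. None of the 78 probe sets passed an adjusted p of 0.05 in limma over all 45037 probe sets in any of the 3 comparisons between subsets. Over all probe sets, 0% passed between CD27+CD11b+ and CD27+CD11b-, 0.04% between CD27-CD11b+ and CD27+CD11b+ and 0.639% between CD27-CD11b+ and CD27+CD11b-. At an unadjusted p under 0.05 there were 1, 1 and 19 of the 78, against 2.97%, 8.72% and 14.9% of all probe sets. The median over the 78 probe sets was 0.04, -0.15 and -0.10 in these comparisons. Over all probe sets the median was -0.0044, 0.0035 and -0.013. With only probe sets above background, the medians were 0.05, -0.15 and -0.11 over 69 member probe sets. They were 0.03, 0.11 and 0.13 over all 17502 probe sets above background. With all arrays, the median of the members did not share the upward shift of such probe sets in CD27-CD11b+ cells, which was not tested. Without CD27-CD11b+ replicate 2, the last 2 medians over the 78 were 0.03 and 0.07, against 0.03 and 0.006 over all probe sets. Without replicate 1 they were -0.26 and -0.25, against -0.007 and -0.02. In a bulk sample, a smaller number of cells with a transcript and less of it in each cell cannot be told apart.

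Probe sets whose arrays did not overlap between subsets are counted here beside the share of all probe sets that did the same. In CD27+CD11b+ relative to CD27+CD11b- cells, 14 of the 78 had both arrays higher (14.8% of all probe sets) and 10 both lower (15%). For CD27-CD11b+ relative to CD27+CD11b+ cells these counts were 9 (20.7%) and 16 (16.8%). Between CD27-CD11b+ and CD27+CD11b- cells they were 13 (24%) and 18 (22.8%). Of the 17502 probe sets above background, 6956 were higher and 2759 lower without overlap in this last comparison. For CD27-CD11b+ relative to CD27+CD11b+ cells, 5491 of them were higher and 1890 lower. For CD27+CD11b+ relative to CD27+CD11b- cells, 3427 were higher and 2218 lower. The plot of the differences by gene shows the spread of the members on both sides of 0.

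**Figure D1:**
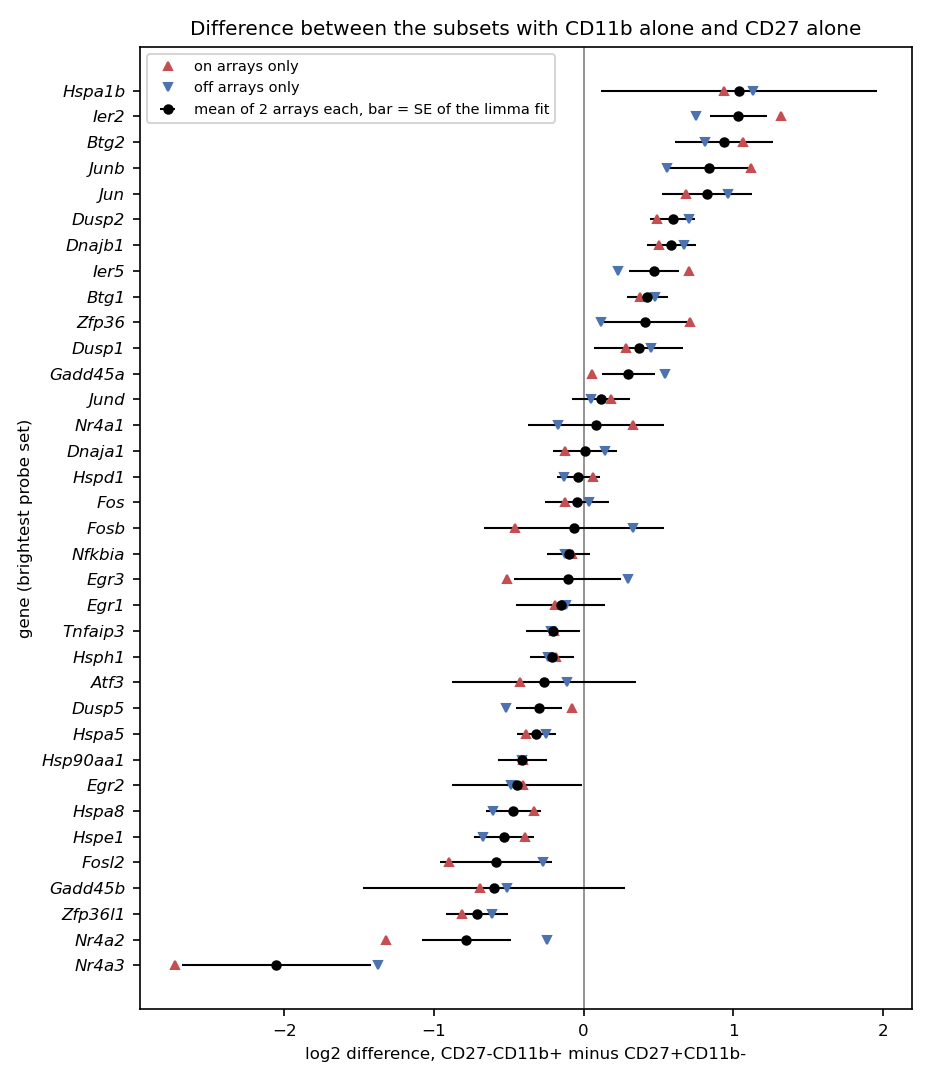
Log2 difference, CD27-CD11b+ minus CD27+CD11b-, of the brightest probe set of each of the 35 members above background, with the mean of 2 arrays per subset as black points, the SE of the limma fit as bars, and the same difference in on and off arrays alone as red and blue triangles. Hspa1b (1.04) and Ier2 (1.04) stand at the top and Nr4a3 (-2.05) at the bottom.

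The NR4A genes encode 3 orphan nuclear receptors induced by antigen receptor and cyclic AMP signals. Nr4a3 had values of 9.66 and 11.21 in CD27+CD11b-, 9.54 and 11.10 in CD27+CD11b+, and 8.48 and 8.29 in CD27-CD11b+ cells. Both CD27-CD11b+ arrays lay below all 4 others, and the 2 arrays within each of the other subsets were more than 1 log2 unit apart. The difference CD27-CD11b+ minus CD27+CD11b- was -2.05 (SE 0.63), 4.15-fold lower, with limma adjusted p = 0.218. It was -1.38 between the off arrays and -2.73 between the on arrays, and -2.15 without CD27-CD11b+ replicate 1 (adjusted p = 0.397). Without CD27+CD11b- replicate 2 it was -1.28 (adjusted p = 0.532), and with single arrays left out it ranged from -2.83 to -1.28. Against CD27+CD11b+ cells it was -1.94 (SE 0.63, adjusted p = 0.462). A dimmer Nr4a3 probe set, at 6.04 to 7.13, differed by -0.52.

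Nr4a2 had 11.64 and 12.21 in CD27+CD11b-, 11.51 and 12.08 in CD27+CD11b+, and 10.89 and 11.39 in CD27-CD11b+ cells. Its CD27-CD11b+ arrays were again the lowest, by a margin smaller than the gap between them. The difference CD27-CD11b+ minus CD27+CD11b- was -0.78 (SE 0.30, adjusted p = 0.295), -0.53 without CD27-CD11b+ replicate 1, and between -0.998 and -0.322 over its 5 probe sets above background. Nr4a1 did not share this order: it had 10.43 and 11.14 in CD27+CD11b-, 10.84 and 11.50 in CD27+CD11b+, and 11.48 and 10.26 in CD27-CD11b+ cells, so one CD27-CD11b+ array was the lowest of the 6 and the other next to the highest. All 10 NR4A probe sets, of which 6 are of Nr4a2 and 2 were not above background, had a lower mean in CD27-CD11b+ than in CD27+CD11b+ cells. The arrays of 7 of them did not overlap (16.8% of all probe sets).

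Among the genes named for an immediate early response, Ier2, which encodes a nuclear protein, had the smallest adjusted p of any member between subsets. Its values were 11.83 and 11.70 in CD27+CD11b-, 12.60 and 12.38 in CD27+CD11b+, and 13.03 and 12.58 in CD27-CD11b+ cells. Both CD27+CD11b- arrays lay below the 4 others, while CD27-CD11b+ and CD27+CD11b+ overlapped. The difference CD27-CD11b+ minus CD27+CD11b- was 1.04 (SE 0.19, 2.05-fold) with limma adjusted p = 0.0891. With a mean-variance trend in the fit, adjusted p = 0.0481 (0.389% of all probe sets called as higher). With 1 probe set per gene over 18193 genes, adjusted p = 0.0304 and Ier2 was the 1 member of 37 called (3.39% of genes, 2.24% as higher). Without CD27-CD11b+ replicate 1 the difference was 0.81 with adjusted p = 0.226, and without replicate 2 it was 1.26 with adjusted p = 0.0403 (2.16% of all probe sets called). Over all alternatives its adjusted p ranged from 0.0304 to 0.362. Ier5, which is known to modify heat shock factor 1, was 0.47 higher (SE 0.17, adjusted p = 0.274) and its arrays did not overlap. Ier3 lay between 5.58 and 6.43, near background.

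The AP-1 subunits, Fos and Jun family proteins that bind DNA as dimers, differed among themselves. Junb had 10.93 and 11.04 in CD27+CD11b-, 11.88 and 11.25 in CD27+CD11b+, and 12.15 and 11.49 in CD27-CD11b+ cells. Jun had 10.44 and 11.25, 11.35 and 11.38, and 11.94 and 11.41 in the same order. For both genes the CD27+CD11b- arrays were the lowest on the brightest probe set. The other Jun probe set did not keep this order. It had 8.88 and 9.80 in CD27+CD11b-, 9.26 and 9.70 in CD27+CD11b+, and 10.24 and 9.29 in CD27-CD11b+ cells, a difference of 0.43. The differences CD27-CD11b+ minus CD27+CD11b- were 0.84 (SE 0.29, adjusted p = 0.257) for Junb and 0.82 (SE 0.30, adjusted p = 0.281) for Jun, and 0.51 and 0.56 without CD27-CD11b+ replicate 1. Fos, the partner of the Jun proteins, stayed between 13.22 and 13.66 in all 6 arrays and differed by -0.04 (SE 0.22). Fosl2 differed by -0.59 (SE 0.37, adjusted p = 0.531), Jund by 0.12, and Fosb and Atf3 by -0.06 and -0.27, with SEs of 0.60 and 0.62.

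The genes that limit signals or growth went both ways. Btg2, an antiproliferative protein that brings mRNAs to the deadenylase complex, had 10.48 and 11.05 in CD27+CD11b-, 10.92 and 11.28 in CD27+CD11b+, and 12.12 and 11.29 in CD27-CD11b+ cells. CD27-CD11b+ replicate 1 stood well above the 5 other arrays. The difference was 0.94 (SE 0.33, adjusted p = 0.261), 0.89 on the other Btg2 probe set, and 0.52 without that array. Dusp2, a nuclear phosphatase of MAP kinases, had 11.55 and 11.83, 12.02 and 12.06, and 12.33 and 12.26 in the order of the subsets. Its 3 subsets did not overlap, and the difference CD27-CD11b+ minus CD27+CD11b- was 0.60 (SE 0.15, adjusted p = 0.153), and 0.56 without CD27-CD11b+ replicate 1.

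Zfp36l1, which binds AU-rich mRNAs and marks them for decay, ran the other way, with 11.90 and 12.18 in CD27+CD11b-, 11.42 and 11.92 in CD27+CD11b+, and 11.37 and 11.29 in CD27-CD11b+ cells. Both CD27-CD11b+ arrays were the lowest, and the difference was -0.71 (SE 0.21, adjusted p = 0.196), and -0.75 without CD27-CD11b+ replicate 1. Its relative Zfp36 differed by 0.41 (SE 0.28), and by -0.01 without that array. Btg1 differed by 0.43 on its brightest probe set and by -0.18 on another. Dusp1, Dusp5, Gadd45a and the NF-kB inhibitors Nfkbia and Tnfaip3 differed by 0.37, -0.30, 0.30, -0.10 and -0.21. The 3 EGR zinc finger factors, Egr1, Egr2 and Egr3, differed by -0.15, -0.45 and -0.11, with SEs of 0.30, 0.44 and 0.36.

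Of the chaperones, Hspa1b, the stress-inducible HSP70, had 5.75 and 7.49 in CD27+CD11b-, 5.36 and 7.65 in CD27+CD11b+, and 8.43 and 6.89 in CD27-CD11b+ cells. The arrays within a subset were further apart than the subset means. The difference CD27-CD11b+ minus CD27+CD11b- was 1.04 (SE 0.92, adjusted p = 0.665) and was 0.27 without CD27-CD11b+ replicate 1, but it was 1.13 between off arrays and 0.94 between on arrays. With the division as a block, the SE of this probe set was 0.21 (adjusted p = 0.0911), and a dim Hspa1b probe set, at 4.39 to 6.73, was called (adjusted p = 0.0319), the 1 member of 78 in that fit, against 0.955% of all probe sets. The mean of that probe set lay below the background level in every subset, so no size is given for its difference. That fit was chosen with the division known, so its p-values may be too small. Dnajb1, an HSP40 that hands clients to HSP70, had 10.56 and 10.87, 10.87 and 11.01, and 11.37 and 11.23 in the order of the subsets and differed by 0.59 (SE 0.16, adjusted p = 0.181), and by 0.52 without CD27-CD11b+ replicate 1.

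Several other chaperones had lower values in CD27-CD11b+ than in CD27+CD11b- cells, without a call. Hspe1, the lid of the mitochondrial chaperonin, Hspa8, the constitutive HSP70, Hsp90aa1, the inducible HSP90, and Hspa5 (BiP), the HSP70 of the endoplasmic reticulum, differed by -0.53, -0.47, -0.41 and -0.32 with non-overlapping arrays in all 4 and limma adjusted p from 0.293 to 0.329. Of the 10 heat shock genes, 5 were lower and 1 higher without overlap (22.8% and 24% of all probe sets). Of 38 cytosolic and mitochondrial chaperones outside the set, 8 were lower and 11 higher, with a median of 0.10. The 4 Hspa8 probe sets above background ranged from -0.47 to 0.01. Those of Hspe1 ranged from -0.53 to -0.28, of Hsp90aa1 from -0.41 to -0.20 and of Hspa5 from -0.33 to -0.08. Each of these genes also had a probe set above background whose arrays overlapped. Hsph1, the nucleotide exchange factor HSP110, differed by -0.21, and Hspd1 and Dnaja1 by -0.03 and 0.01. Of the 21 members with several probe sets above background, all probe sets went one way in 16, the exceptions being Btg1, Nfkbia, Tnfaip3, Hspa8 and Hsph1.

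**Figure D2:**
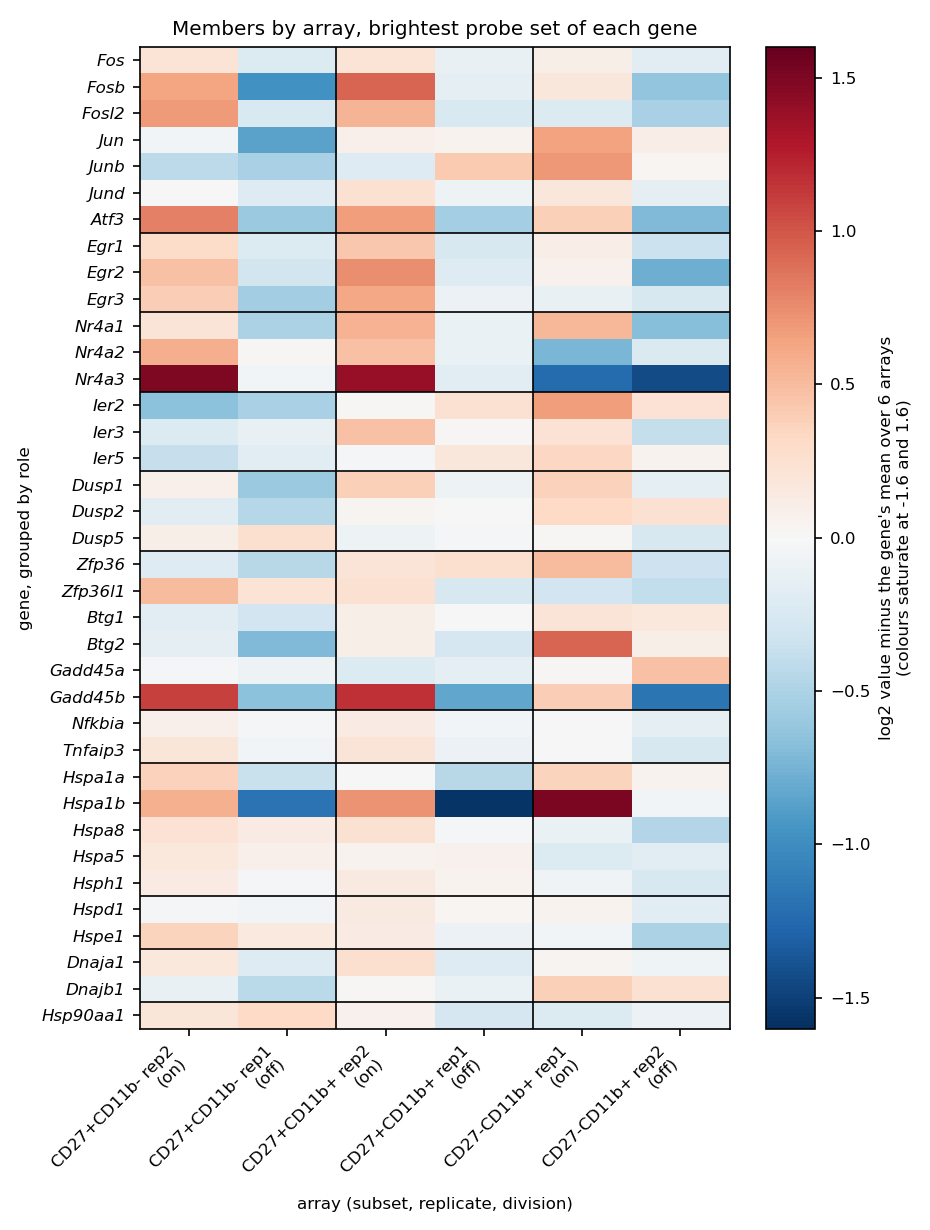
Heat map of the 37 members, grouped by role, with each cell the log2 value of the brightest probe set minus its mean over the 6 arrays (red higher, blue lower), and the on array left of the off array in each subset. Gadd45b, Atf3, Fosb and Hspa1b are redder in the on array of every subset, and Nr4a3 is blue in both CD27-CD11b+ arrays.

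Another pattern ran within the subsets, between the arrays of the division. In all 3 subsets the on array had more Hspa1b, Gadd45b, Atf3, Fosb and Nr4a1 transcript than the off array, by a mean of 0.86 to 1.86 on the log2 scale. Of the 37 genes, 35 had a positive mean difference and 27 were higher in the on array of all 3 pairs, with 0 lower in all 3. Of all 18193 genes, 9069 had a positive mean difference, 3757 were higher in all 3 pairs and 2534 lower. Over probe sets, 47 of 78 were higher in all 3 pairs (17.7% of all probe sets) and 2 lower (14.9%). The median over the 78 probe sets was 0.29, against -0.010 over all probe sets. Of the 17502 probe sets above background, 4831 were higher and 1768 lower in all 3 pairs, with a median of 0.05. No member passed limma's adjusted threshold in the fit over 45037 probe sets, where 0.00888% were called, and the smallest adjusted p of a member was 0.0831. At an unadjusted p under 0.05 there were 35 of 78 members and 10.2% of all probe sets.

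Hspa1b had 7.49, 7.65 and 8.43 in the on arrays, in the order of the subsets, against 5.75, 5.36 and 6.89 in the off arrays. The off arrays averaged 6.002, under the background level, so the on arrays were at least 2.56-fold higher, taking each off array at no less than that level. The mean difference was 1.86 (SE 0.17, limma adjusted p = 0.0833), and a dimmer Hspa1b probe set, whose off arrays averaged 5.52, gave 1.42. The Hspa1b probe set that was above background in no subset averaged 6.02 in the on arrays and 4.83 in the off arrays. Hspa1a, whose promoter differs from that of Hspa1b at 3 printed positions, lay at 4.47 to 5.29, under background in all 6 arrays.

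Gadd45b, a stress sensor that activates the p38 pathway, had 10.66, 10.74 and 9.97 in the on arrays, against 8.91, 8.73 and 8.41 in the off arrays. The 2 sets of arrays did not overlap, and the mean difference was 1.77 (SE 0.13, 3.41-fold, adjusted p = 0.0831). Its other probe set above background gave 1.39. Between subsets, by contrast, its difference CD27-CD11b+ minus CD27+CD11b- was -0.60 (SE 0.87, adjusted p = 0.806), and it was -1.38 without CD27-CD11b+ replicate 1 and 0.18 without replicate 2. Atf3, a repressor induced by many stresses, had 9.42, 9.28 and 8.999 in the on arrays and 8.02, 8.07 and 7.91 in the off arrays. The gap between the sets was wider than the range within either, and the mean difference was 1.23 (SE 0.12, adjusted p = 0.0843).

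Fosb had 9.97, 10.26 and 9.52 in the on arrays and 8.37, 9.20 and 8.70 in the off arrays, a mean difference of 1.16 (SE 0.17, adjusted p = 0.162). Nr4a1 had 11.14, 11.50 and 11.48 in the on arrays and 10.43, 10.84 and 10.26 in the off arrays, a mean difference of 0.86 (SE 0.15, adjusted p = 0.206). Neither gene overlapped between on and off arrays. Nr4a3 had 11.21, 11.10 and 8.48 in the on arrays and 9.66, 9.54 and 8.29 in the off arrays. Its differences of 1.54 and 1.57 in the CD27+ subsets stood beside 0.19 in CD27-CD11b+, and a test of that unevenness was not made. The dimmer Nr4a3 probe set differed by -0.46, in the opposite direction.

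**Figure D3:**
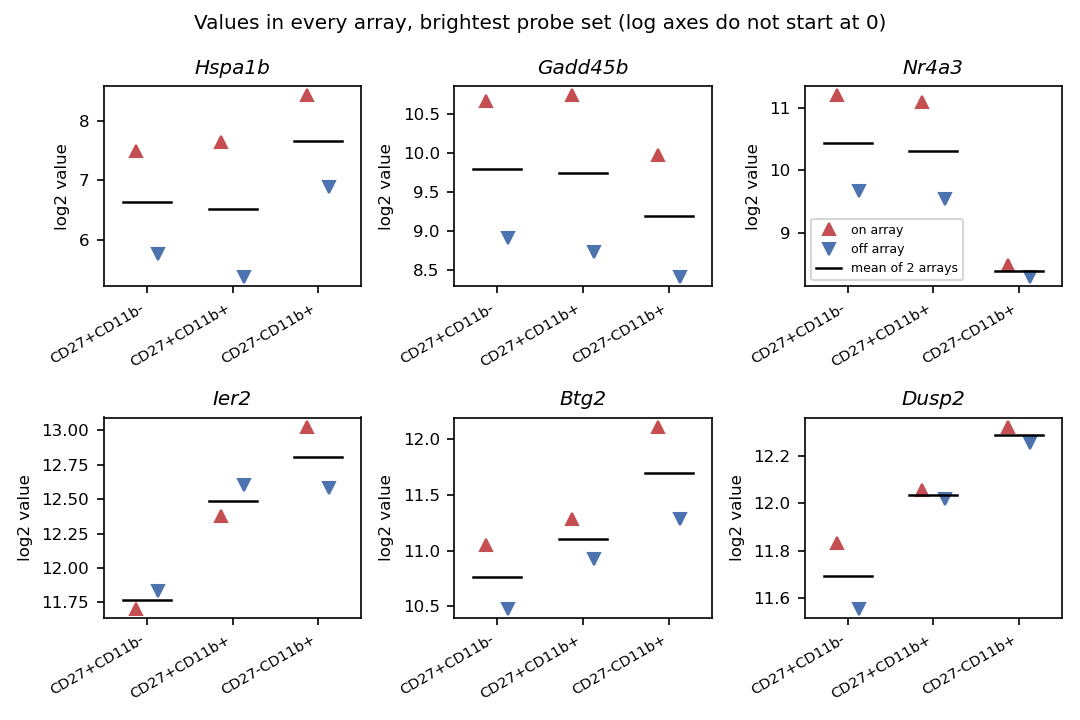
Log2 values of 6 members in every array, on arrays as red upward and off arrays as blue downward triangles, with the mean of the 2 arrays of a subset as a line. Hspa1b and Gadd45b separate by the division in every subset, Ier2 and Dusp2 are lowest in the CD27+CD11b- arrays, Btg2 is highest in CD27-CD11b+ replicate 1, and Nr4a3 is low in both CD27-CD11b+ arrays.

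The other members followed by degrees. Egr2, Fosl2, Egr3, Btg2, Dusp1 and Egr1 had mean differences of 0.86, 0.67, 0.60, 0.59, 0.55 and 0.55 by their brightest probe sets, each positive in all 3 subsets. The other Btg2 probe set gave -0.07, -0.44 and 0.94 in the order of the subsets (mean 0.15), and the other Egr3 probe set had a mean difference of 0.12. Fos, whose product dimerises with the Jun proteins, differed by 0.35 and Jun by 0.46. Of the other chaperones, Hspa8 differed by 0.25, Hspd1 by 0.12, Hsp90aa1 by 0.03 and Hspa5 by 0.01. The 4 Hspa8 probe sets above background lay between -0.15 and 0.47. Of the 21 members with several probe sets above background, the mean difference had one sign in 16, and Nr4a3, Ier5, Btg1, Hspa8 and Hspa5 were the exceptions. Dusp2 and Ier2 differed by 0.13 and 0.03 between on and off arrays. Over probe sets, the median was 0.36 for the 52 immediate early and 0.17 for the 26 heat shock probe sets.

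**Figure D4:**
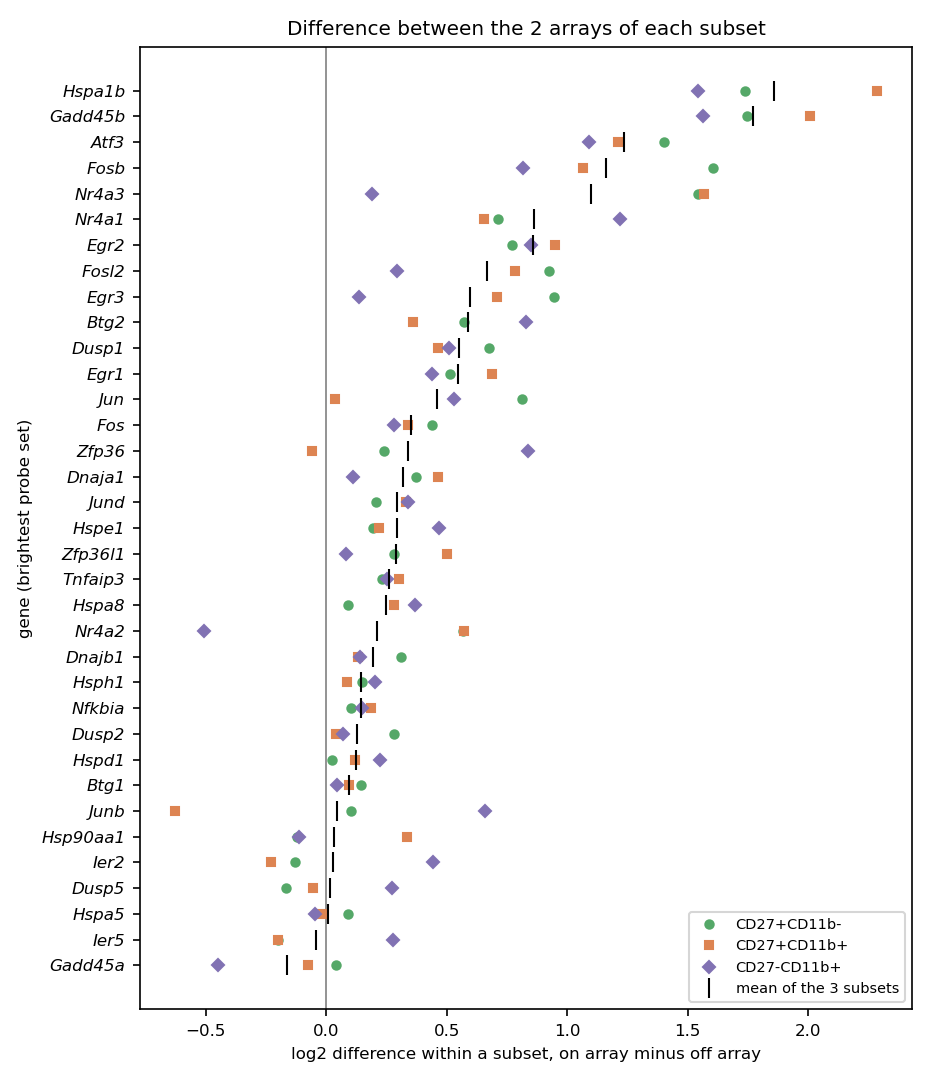
Log2 difference between the on and the off array within each subset (circles, squares and diamonds) and their mean (bar), for the brightest probe set of the 35 members above background. Hspa1b and Gadd45b lie above 1.5 in all 3 subsets, and Junb and Nr4a2 have points on both sides of 0.

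The calls of this comparison depended on what entered the fit. With 1 probe set per gene, 6 of 37 members were called, all higher in the on arrays: Atf3, Egr2, Fosb, Gadd45b, Hspa1b and Nr4a1, with limma adjusted p from 0.00198 for Gadd45b to 0.0298 for Nr4a1, against 1.33% of all genes (1.17% as higher). Without CD27-CD11b+ replicate 1, which leaves the pairs of the CD27+CD11b- and CD27+CD11b+ subsets, 25 of 78 probe sets of 16 genes were called, against 7.33% of all probe sets (4.69% as higher). In both of these pairs the on array is replicate 2, so that fit cannot tell the division from the replicate number. Deviations of same-numbered arrays of these 2 subsets correlated at 0.730. In that fit Hspa1b differed by 2.01, Gadd45b by 1.87 and Nr4a3 by 1.55, while Atf3, Fosb and Nr4a1 differed by 1.31, 1.33 and 0.69. Leaving out CD27-CD11b+ replicate 2 instead must give the same differences and is no second result. The 1 array then left in that subset only sets the mean of the subset. No member was called when an array of either CD27+ subset was left out, as in the fit of all 6 arrays. Over single arrays left out, the difference of Hspa1b ranged from 1.64 to 2.01.

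Markers of monocytes, macrophages and neutrophils also had higher values in the on arrays, with 0 called by limma. At an unadjusted limma p under 0.05 there were 21 of 22 monocyte and macrophage and 6 of 11 neutrophil markers, against 10.2% of all probe sets. The mean of 22 monocyte and macrophage markers was 7.72, 8.03 and 7.91 in the on arrays, in the order of the subsets, against 6.21, 7.06 and 6.93 in the off arrays. Of these 22 markers, 21 were higher in all 3 pairs (17.7% of all probe sets) and 18 lay above background, with a median difference of 1.35. The mean of 11 neutrophil markers was 6.81, 6.92 and 6.79 in the on arrays, against 5.83, 6.17 and 6.15 in the off arrays. Of these 11 markers, 8 were higher in all 3 pairs (17.7% of all probe sets) and 6 lay above background. The 10 NK cell markers averaged 11.72, 12.12 and 12.46 in the on arrays, against 11.88, 12.24 and 12.39 in the off arrays, and all lay above background. The medians of the dendritic, B, T and erythroid cell markers were 0.02, -0.13, -0.14 and -0.17, with 7 of 11, 2 of 11, 5 of 11 and 2 of 7 above background. Single markers differed more. Of the dendritic cell markers 3 were higher and 3 lower in all 3 pairs, and H2-Aa had 10.82, 10.85 and 10.72 in the on arrays, against 9.03, 9.19 and 9.14. Of the erythroid markers 1 was higher and 4 lower, and Alas2 had 5.77, 5.87 and 6.70 in the on arrays, against 7.30, 7.91 and 8.36. Of all probe sets, 17.7% were higher and 14.9% lower. The part of other cells in the difference of the members was not tested. For the 27 immediate early genes the means were 10.99, 11.13 and 10.94 in the on arrays, against 10.46, 10.69 and 10.51 in the off arrays, and for the 10 heat shock genes 10.58, 10.55 and 10.54 against 10.22, 10.12 and 10.22.

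**Figure D5:**
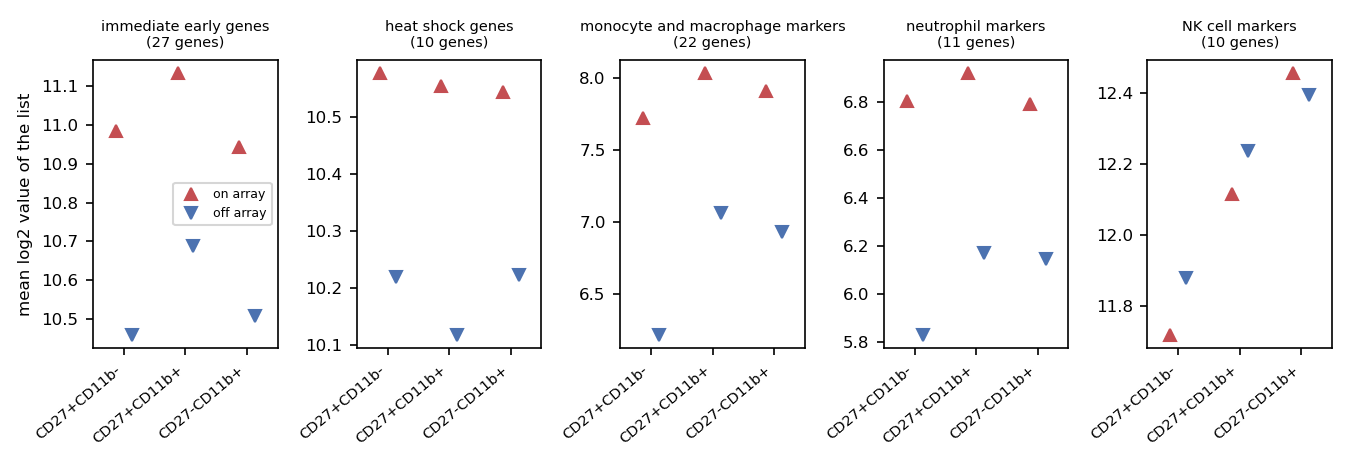
Mean log2 value of 5 gene lists in each array, on arrays as red upward and off arrays as blue downward triangles, by subset; each panel has its own axis. Immediate early, heat shock, monocyte and macrophage, and neutrophil lists are higher in the on array of every subset, and the NK cell markers order by subset.

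Between subsets, the median over the 22 markers of monocytes and macrophages was 0.64 for CD27+CD11b+ minus CD27+CD11b-, with 1 higher without overlap (14.8% of all probe sets) and 0 called by limma (0 with an unadjusted p under 0.05). Their median was 0.46 for CD27-CD11b+ minus CD27+CD11b- (0.16 between on and 0.90 between off arrays), with 1 higher without overlap (24% of all probe sets) and 0 called by limma (1 with an unadjusted p under 0.05). Their part in the differences of the members between subsets was not tested. The NK cell markers had a median of 0.51 for CD27-CD11b+ minus CD27+CD11b-, with 8 of 10 higher without overlap (24% of all probe sets).

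Other genes of the same pathways were read from lists of 4 kinds, and 0 of them were called by limma in any of the comparisons over all 45037 probe sets. Between on and off arrays, an unadjusted p under 0.05 was reached by 7 of 18 upstream regulators, 24 of 47 other immediate early genes, 8 of 38 other chaperones and 3 of 20 other stress genes of the endoplasmic reticulum, against 10.2% of all probe sets. Of 18 upstream regulators with a probe set of their own (serum response factor and its partners, CREB, NF-kB and heat shock factors, and MAP kinases), 11 were higher in the on array of all 3 pairs, with a median of 0.25, and their median between CD27-CD11b+ and CD27+CD11b- was 0.08. Of 47 other immediate early genes, 26 were higher in all 3 pairs, with a median of 0.35. Of 38 other chaperones, 15 were higher and 2 lower (median 0.09), and of 20 other genes of endoplasmic reticulum stress 8 were higher (median 0.11). Each of these counts stands beside 17.7% of all probe sets higher and 14.9% lower.

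Between CD27-CD11b+ and CD27+CD11b- cells, the 47 other immediate early genes had a median of -0.13, with 16 lower and 11 higher without overlap (22.8% and 24% of all probe sets). Ccl4, a chemokine of activated NK cells, differed by 1.74 (SE 0.26, limma adjusted p = 0.0536). Klf4, a zinc finger factor, differed by -2.43 (SE 0.56, adjusted p = 0.131), and the AP-1 partner Maff by -1.72 (adjusted p = 0.301). Klf2, a factor of quiescence and migration, differed by 1.52 (adjusted p = 0.126), Socs3, an inhibitor of cytokine signals, by -1.18 and Myc by -1.07. With the division as a block these 6 were called, with adjusted p between 0.0177 and 0.0408, against 0.955% of all probe sets.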

How the data were processed

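Per the labels, 2 RNA samples of each sorted subset went on Affymetrix mouse 430 2.0 arrays. The authors deposited log2 values for 45101 probe sets, a scale read from their range (2.60 to 14.72). Per the submitters' processing notes they used RMA, whose version is not given in the sources used here. The method equalises the distribution of values between arrays, so a change shared by most genes is removed, and it compresses differences of dim genes. Scanner files were not used here. The number of arrays limits the precision.

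From these values, 64 control probe sets were left out. Of the other 45037, 34945 carried 1 gene symbol, 932 several and 9160 none, and only those with 1 symbol were named. Gene identifiers of 34741 were found in RefSeq, with 0 symbols updated. A gene is summarised by its probe set with the highest mean (brightest), and 12 member probe sets have names that mark possible matches to other transcripts, among them the brightest of Gadd45b, Hspa8 and Hspe1. Tests were run with limma 3.58.1 (R 4.3.3) on the 6 arrays together, each subset with its own mean (3 residual and 3.34 prior degrees of freedom), adjusted by Benjamini-Hochberg over all 45037 probe sets at 0.05. The comparison of on and off arrays added the division to that fit (2 residual and 3.49 prior degrees of freedom). The fit was tested on simulated data. Full values are given for the 10 members above background with the largest difference CD27-CD11b+ minus CD27+CD11b- and the 6 with the largest difference between on and off arrays. The 6 other immediate early genes were named because the blocked fit called them, and only their differences are given. Members, lists and the division were chosen with earlier results of these data known. Same-numbered arrays did not deviate together in every pair of subsets (correlations of 0.730, -0.112 and 0.0475 over the 17502 probe sets above background). No pairing by replicate number was used in the main fit. Arrays on the same side of the division did not deviate together in every pair either (0.730, 0.112 and -0.0475). The value of 0.730 is that of the CD27+CD11b- and CD27+CD11b+ arrays, whose same-numbered arrays did deviate together. There the replicate number and the division cannot be told apart.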

Additional observations from a re-analysis of the deposited data

Results flagged for a closer look

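The arrays of different subsets moved in opposite directions across the division for 2 members, by at least 0.5 on the log2 scale each way. Junb, an AP-1 subunit, differed between the on and the off array by -0.63 in CD27+CD11b+ cells and by 0.66 in CD27-CD11b+ cells. Nr4a2, a nuclear receptor, differed by 0.57 in CD27+CD11b- cells, by 0.57 in CD27+CD11b+ cells and by -0.51 in CD27-CD11b+ cells. Each value rests on 1 on and 1 off array, and the difference between subsets was not tested. On the other Nr4a2 probe sets above background, the difference in CD27-CD11b+ cells ranged from -0.03 to 0.53, so the opposite direction is that of the brightest probe set. Groups of 2 arrays were not screened for single outlying arrays.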

How the results depend on the processing

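The count of called members between CD27-CD11b+ and CD27+CD11b- was 0 with all arrays, and 1 with 1 probe set per gene, with a mean-variance trend (both Ier2) and with the division as a block (an Hspa1b probe set below background). Leaving out single arrays gave 0 to 1, with Ier2 called without CD27-CD11b+ replicate 2 (difference 1.26, limma adjusted p = 0.0403). Between on and off arrays the count was 0, 6 with 1 probe set per gene, and 0 to 25 with single arrays left out, 25 without either CD27-CD11b+ array. The median of the on and off difference was 0.29, 0.33 with each array centred on its median and 0.26 with 32 added to the linear values. Gadd45b, CD27-CD11b+ minus CD27+CD11b-, was -0.60 and ranged from -1.47 to 0.27 with single arrays left out. It turned to 0.27 without CD27+CD11b- replicate 2 and to 0.18 without CD27-CD11b+ replicate 2, settings that leave unequal numbers of on arrays on the 2 sides. The medians of the members ranged under such settings from -0.13 to 0.28, from -0.26 to 0.03 and from -0.25 to 0.15 in the 3 comparisons between subsets. With the replicate number as a block, 0, 0 and 0 members were called in these comparisons, and of all probe sets 0, 11 and 390, against 0, 18 and 288 without the block. Counts over all probe sets for CD27-CD11b+ minus CD27+CD11b- were 430 with the division as a block, 127 with 32 added, 23 and 18 without CD27+CD11b- replicate 1 or 2, 68 without either CD27+CD11b+ array, 73 and 971 without CD27-CD11b+ replicate 1 or 2, and 617 of 18193 genes with 1 probe set per gene. Across the alternatives, the values of named members kept direction and call in 174 cases, gained a call in 20 and turned in 2. These cases are not independent checks. A trend, a block or leaving out a CD27+CD11b+ array cannot change the difference CD27-CD11b+ minus CD27+CD11b-. The 2 settings without a CD27-CD11b+ array are the same fit of on and off arrays, so its gained calls are counted 2 times. In that fit the division cannot be told apart from the replicate number. An arm with 1 array is assumed to vary like the others. With 2 arrays per subset and 2 or 3 residual degrees of freedom, a missing call does not show that values did not differ, and probe sets near background give compressed differences.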
